A study of Homo sapiens with 6 samples.

Results

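The genes described here are STAT3, the cytokine-inducible inhibitors SOCS1, SOCS2, SOCS3 and CISH, the receptor chains IL6R, IL6ST, LIFR and OSMR, and the kinase JAK2. They were chosen by symbol, and all 10 were found among the 28395 genes of the table. HCC827, an established line from a human lung adenocarcinoma, depends on an EGFR gene with an activating deletion, and the drug erlotinib inhibits the EGFR kinase. Cells were grown in RPMI medium with serum, antibiotics and plasmocin, an agent against mycoplasma, and treated with the vehicle DMSO (3 libraries, numbered 1 to 3) or with 1 μM erlotinib (3 libraries, numbered 4 to 6), both for 24 h, and the comparison asks which transcripts changed when EGFR was inhibited. Both groups carry the EGFR deletion, and the results describe 1 cell line at 1 dose and 1 time.

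Cytokines of the IL-6 family bind a specific receptor chain, such as the IL-6 receptor (IL6R), the LIF receptor (LIFR) or the oncostatin M receptor (OSMR), which then signals together with the shared chain gp130, the product of IL6ST. JAK kinases bound to these chains phosphorylate them and recruit STAT3, which is itself phosphorylated, enters the nucleus and drives transcription. Among its targets is SOCS3, whose protein binds gp130 and the JAKs and shuts the signal down. CISH and SOCS2 are known as targets of the related factor STAT5 and restrain growth hormone and similar signals, and SOCS1 inhibits JAKs downstream of interferons. EGFR can also activate STAT3, and STAT3 activity is known to be controlled mainly by phosphorylation, which RNA levels do not show.

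The libraries held 20760204 to 24641819 reads on genes. The table gives signal, the reads of a gene divided by 1 size factor per library, and the smallest member count was 41 reads of SOCS1. The epithelial marker EPCAM was abundant, with a mean signal of 9852 in DMSO and 9485 with erlotinib. Of 6 lung epithelial markers, the lineage factor NKX2-1 (3002 and 8644), NAPSA (986 and 3733) and SLC34A2 (15.6 and 132) were higher with erlotinib and FOXA2 (81.2 and 38.7) was lower. The surfactant genes SFTPB and SFTPC had at most 13 reads in any library, with SFTPC at 0 in every DMSO library. Of 6 epithelial markers, 4, all keratins (KRT7, KRT8, KRT18 and KRT19), were lower with erlotinib, beside 35.4% of the 14215 genes tested. CDH1 leaned the other way, at 27824 in DMSO and 30609 with erlotinib with no overlap, but missed the 0.05 threshold (limma adjusted p = 0.0531). Of 8 leukocyte markers, CD68, a lysosomal protein made by many cells, was the most abundant and the only one with enough signal to test, at 2898 in DMSO and 3394 with erlotinib. The others, PTPRC and CD3E among them, had at most 26 reads in any library. Of 6 fibroblast markers, COL1A1 was the most abundant, at 77.7 in DMSO and 216 with erlotinib, and the rest had at most 20 reads in any library, with COL1A2 at 0 in every erlotinib library. Of 4 endothelial markers, VWF (3.94 and 27.4) was the most abundant with erlotinib and PECAM1 (15.7 and 10.4) in DMSO, and KDR was at 0 in every DMSO library. The summed mean signal of the leukocyte list was 2933 in DMSO and 3430 with erlotinib, that of the fibroblast list 86.0 and 233, and that of the endothelial list 23.4 and 50.2. The part of these markers in the results was not tested. RNA from bulk samples cannot separate fewer cells of a kind from less RNA per cell. The study states in general that experiments were repeated independently, but neither it nor the labels say whether the libraries of a group came from separate cultures, so the p-values measure only the spread between these libraries.

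With erlotinib, STAT3 and SOCS3 rose clearly and SOCS2 fell clearly, while the log2 fold changes of the receptor chains lay between -0.12 and 0.36 and that of JAK2 was 0.02. All 10 genes had enough signal to be tested, and 4 were higher (STAT3, SOCS3, IL6R and LIFR) and 2 lower (SOCS2 and CISH) at an adjusted p-value under 0.05 (limma on log2 of signal plus 1, Benjamini-Hochberg over all tested genes). These shares stand against a background in which erlotinib changed 70.7% of the 14215 genes tested, 35.4% lower and 35.3% higher. The median log2 fold change was 0.15 over the 10 genes and 0.02 over all tested genes. In 6 of the 10 genes the DMSO and erlotinib libraries did not overlap, and over all tested genes this held for 73.6%. Both shares of the 10 genes are therefore near or under the background, and the results lie in which genes moved and by how much.

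**Figure D1:**
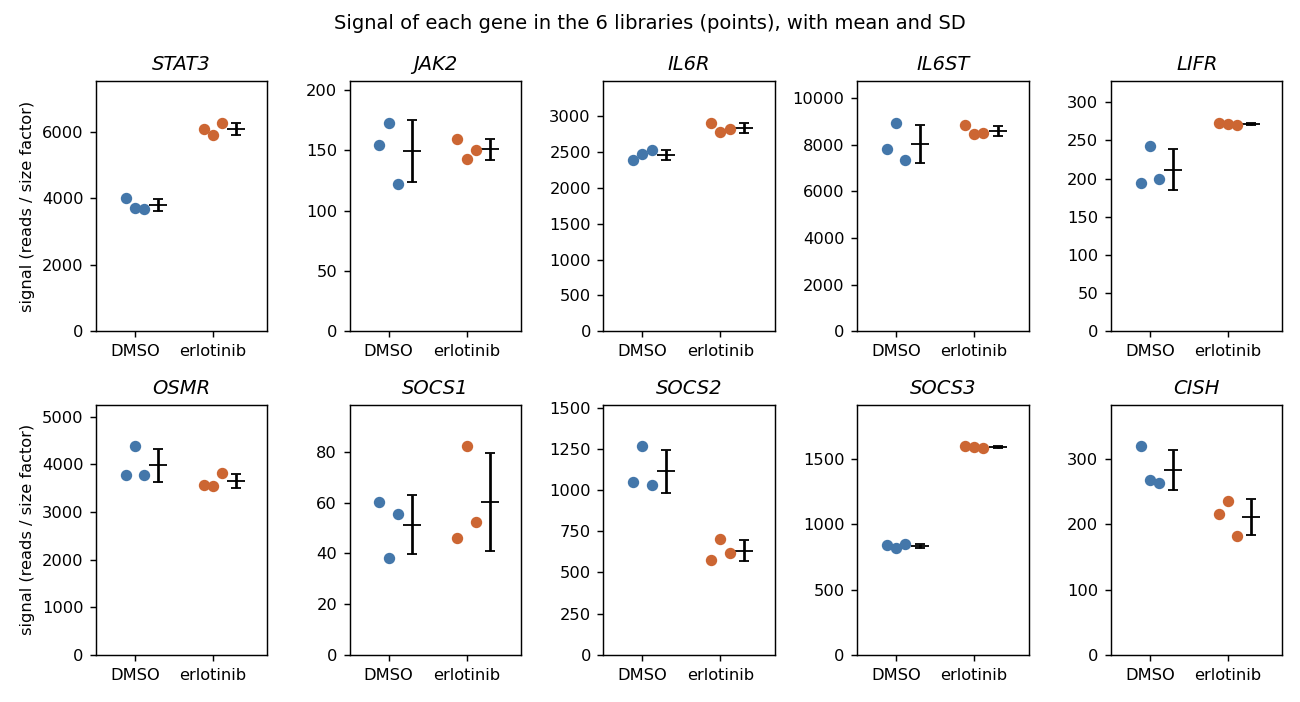
Signal (reads divided by the size factor, vertical axes from 0 and scaled for each gene) of the 10 genes in each DMSO library (blue points) and each erlotinib library (orange points), with the mean and SD of the 3 libraries as black bars. STAT3 and SOCS3 lie apart upwards and SOCS2 downwards, while the groups overlap for JAK2, IL6ST, OSMR and SOCS1.

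STAT3 (Entrez gene 6774, chromosome 17, 42313324 to 42388442 of GRCh38) encodes the transcription factor on which gp130 receptors converge. Its signal was 4021, 3720 and 3673 in the DMSO libraries and 6095, 5916 and 6281 in the erlotinib libraries. Every erlotinib library lay well above every DMSO library, and the spread within each group was small. The mean rose from 3805 ± 189 to 6097 ± 183 (SD, n = 3 each), a rise of 60.3% on the fitted scale (log2 fold change 0.68 with a standard error of 0.07, limma adjusted p = 8.4e-09). Leaving out any one library gave log2 fold changes of 0.66 to 0.72.

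JAK2 (chromosome 9, 4984390 to 5129948) encodes a receptor-bound tyrosine kinase. It was read only 114 to 186 times per library, and its signal was 154, 173 and 122 in DMSO and 159.6, 143 and 149.8 with erlotinib. The DMSO libraries spanned the erlotinib libraries on both sides. The log2 fold change was 0.02 (95% interval -0.34 to 0.39, adjusted p = 0.914, limma), so a change within these bounds was not excluded at this depth. Its sign turned when DMSO library 3 (-0.12) or erlotinib library 4 (-0.02) was left out.

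Among the receptors, IL6R (chromosome 1, 154405343 to 154469450), the chain that binds IL-6, had a signal of 2391, 2470.3 and 2530 in DMSO and 2909, 2778 and 2828 with erlotinib. All erlotinib libraries were above all DMSO libraries, but by a small margin. Its 1.15-fold rise (log2 fold change 0.20 with a standard error of 0.07) had a limma adjusted p of 0.0106, and without erlotinib library 4 the adjusted p-value was 0.0597. With libraries scaled to total counts its log2 fold change was 0.38, or 0.19 relative to the median of all tested genes. LIFR (chromosome 5, 38474668 to 38608403), which pairs with gp130 to bind LIF, was weakly expressed, with a signal of 194, 242 and 199 in DMSO and 273, 271 and 269.6 with erlotinib. The erlotinib libraries hardly differed among themselves, and DMSO library 2 stood nearest to them. Its 1.29-fold rise (log2 fold change 0.36 with a standard error of 0.14) had a limma adjusted p of 0.0254, and it passed the threshold in only 1 of the 6 fits that left out a library, the one without DMSO library 2. The call for LIFR therefore depends on which libraries are included. The antisense gene LIFR-AS1, which overlaps LIFR, averaged 5.95 in DMSO and 19.3 with erlotinib, and the strand that was counted is not given in the sources used here.

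IL6ST (chromosome 5, 55935095 to 55994963), the gene of gp130, had the highest signal of the 10 genes, at 7806, 8941 and 7339 in DMSO and 8841, 8437 and 8521 with erlotinib. DMSO library 2 was the highest of the 6 and the other DMSO libraries the lowest. The log2 fold change was 0.10 (95% interval -0.04 to 0.25, adjusted p = 0.197, limma). Without DMSO library 2 it was 0.18, past the threshold (adjusted p = 0.0024, limma). OSMR (chromosome 5, 38846012 to 38945579), which pairs with gp130 to bind oncostatin M, had a signal of 3781, 4377 and 3773 in DMSO and 3575, 3554 and 3817 with erlotinib. The groups overlapped, with DMSO library 2 again the highest, and the log2 fold change was -0.12 (95% interval -0.27 to 0.03, adjusted p = 0.138, limma). Without DMSO library 2 it was -0.05. For both genes the intervals exclude a 2-fold change in either direction. When libraries were scaled to total counts, which moves the median of all tested genes from 0.02 to 0.20, IL6ST passed at 0.28 and the sign of OSMR turned to 0.058. OSMR overlaps RICTOR, whose log2 fold change was 0.26.

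Of the 4 SOCS family genes among the 10, SOCS3 rose, SOCS2 and CISH fell, and SOCS1 passed in neither direction. SOCS3 (Entrez gene 9021, chromosome 17, 78356778 to 78360925), the feedback inhibitor of gp130 signalling, had a signal of 839, 821 and 853 in DMSO and 1598, 1597 and 1587 with erlotinib. Each erlotinib library was almost double each DMSO library, and the libraries of a group were nearly alike. The mean rose from 838 ± 16.1 to 1594 ± 6.35 (SD, n = 3 each), a 1.90-fold rise (log2 fold change 0.93 with a standard error of 0.08, limma adjusted p = 1.2e-09) and the largest of the 10 genes in size. Leaving out any one library gave 0.91 to 0.94. The divergent gene SOCS3-DT, which overlaps SOCS3, had a mean signal of 7.77 and 20.8, far below that of SOCS3.

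SOCS2 (Entrez gene 8835, chromosome 12, 93569969 to 93626236), an inhibitor of growth hormone receptor signalling, had a signal of 1050.5, 1265 and 1029 in DMSO and 576, 703 and 619 with erlotinib. All erlotinib libraries lay below all DMSO libraries. The mean fell from 1115 ± 131 to 632 ± 64.6 (SD, n = 3 each), with a log2 fold change of -0.82 and a standard error of 0.10 (limma adjusted p = 4.4e-07). Without any one library it was -0.89 to -0.72.

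CISH (Entrez gene 1154, chromosome 3, 50606489 to 50611774), a relative of SOCS2, had a signal of 319, 267 and 262 in DMSO and 215, 236 and 182 with erlotinib. The groups did not overlap, but the gap between the lowest DMSO and the highest erlotinib library was smaller than the range within either group. The mean fell from 283 ± 31.2 to 211 ± 27.3 (SD, n = 3 each), with a log2 fold change of -0.43 and a standard error of 0.15 (limma adjusted p = 0.0132). The adjusted p-value was 0.0657 without DMSO library 1 and 0.0852 without erlotinib library 6 (limma). It was 0.132 when libraries were scaled to total counts. CISH overlaps the start of MAPKAPK3 on the opposite strand, and that gene fell too, from a mean signal of 4916 to 1774 (log2 fold change -1.47). The part of MAPKAPK3 reads in the CISH values was not tested.

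Promoter windows of 250 bases before annotated starts were searched for TTCNNNGAA, the core letters of the sites that STAT dimers bind, which read the same on both strands. The windows came from a RefSeq table (GRCh38.p14) that matched 9 of the 10 genes, and the starts of SOCS2 were not analysed here. Of 35116 windows of this length over all genes, 6.57% held the motif at least once, and 5 windows held it 4 times or more. The CISH window, chr3:50611775-50612024 on the minus strand, was 1 of these 5, with 4 matches. They begin 241, 230, 129 and 112 bases before the start. The narrower form TTCCNGGAA, which lies within TTCNNNGAA, was found in 0.968% of all windows and accounts for 2 of the 4 matches in CISH. They are shown because this window held more matches than any window of the other genes searched, SOCS2 not being among them. The stretch next to the start is chr3:50611775-50611907, and the distal pair lies in chr3:50611991-50612020. Both are on the minus strand, 5′ to 3′, with matches in capitals.
CISH, stretch next to the start: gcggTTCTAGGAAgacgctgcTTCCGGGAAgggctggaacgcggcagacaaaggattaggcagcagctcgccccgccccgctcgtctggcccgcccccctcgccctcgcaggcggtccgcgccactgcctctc
CISH, distal pair: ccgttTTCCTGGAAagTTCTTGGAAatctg
The whole window lies within MAPKAPK3 (chr3:50611520-50649291) on the opposite strand, and the distal pair also lies in its annotated 5′ UTR. Of the 3 LIFR windows, 2 held 1 match each, TTCCTTGAA and TTCATCGAA. The 11 windows of the remaining genes, SOCS3 and STAT3 included, held 0. A match says only that the letters are present, and binding of a STAT was not measured.

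SOCS1 (chromosome 16, 11254417 to 11256204), an inhibitor of interferon receptor signalling, had only 41 to 83 reads per library. Its signal was 60.1, 38.1 and 55.7 in DMSO and 46.1, 82.2 and 52.4 with erlotinib. The groups overlapped widely, and erlotinib library 5 was the highest. The log2 fold change was 0.21 (95% interval -0.39 to 0.81, adjusted p = 0.527, limma), so a change within these bounds was not excluded at this depth. Without erlotinib library 5 the log2 fold change was -0.033.

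With SOCS3 higher and SOCS2 lower, the makeup of the family shifted. The SOCS family has 8 members with CISH, and SOCS7 had at most 2 reads in any library, so 7 were compared, on signal per kb of the longest GENCODE transcript. In DMSO, SOCS3 and SOCS2 had nearly the same level, 306 ± 5.89 and 299 ± 35.0 (SD, n = 3 each), and with erlotinib 583 ± 2.32 and 169 ± 17.3. The ratio of SOCS3 to SOCS2 was 1.09, 0.886 and 1.13 in the DMSO libraries and 3.79, 3.10 and 3.50 in the erlotinib libraries, with no overlap. SOCS3 made up 20.2%, 18.4% and 21.6% of the summed level of the family in DMSO and 40.4%, 38.0% and 40.3% with erlotinib. The share of SOCS2 was 19.4% ± 1.16 and 11.5% ± 0.797, and that of CISH 3.67% ± 0.459 and 2.83% ± 0.288 (SD, n = 3 each). Levels per kb and shares depend on the transcript chosen. For CISH the longest has 5042 bases in 2 exons, nearly the whole gene (50606489 to 50611774). Shorter transcripts were not compared. The summed level itself was 1533 ± 95.1 in DMSO and 1476 ± 54.0 with erlotinib, a difference smaller than the spread of the DMSO libraries. Of the family members beyond the 10 genes, SOCS4 (log2 fold change -0.55) and SOCS6 (-0.37) fell and SOCS5 (0.01) passed in neither direction, with adjusted p-values of 2.3e-06, 6.2e-04 and 0.906 (limma).

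**Figure D2:**
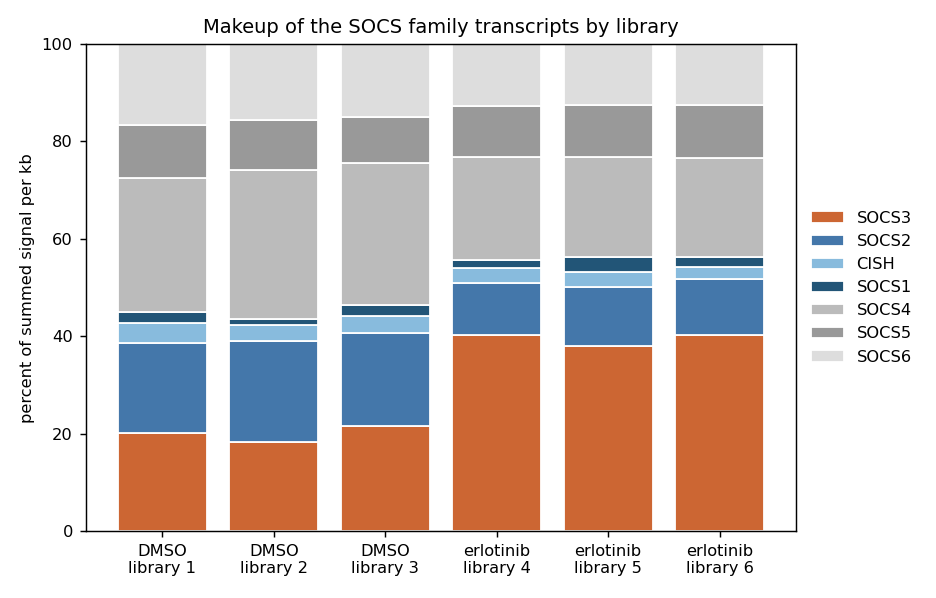
Share of each gene in the summed signal per kb of 7 SOCS family genes (percent, vertical axis), in 1 bar per library. The SOCS3 share (orange) is 18.4% to 21.6% in the DMSO libraries and 38.0% to 40.4% in the erlotinib libraries, and the SOCS2 share (blue) is smaller with erlotinib.

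On signal per kb, the order of the 10 genes in DMSO was IL6ST (889 ± 91.3), STAT3 (753 ± 37.4), OSMR (719.7 ± 62.7), IL6R (427 ± 12.1), SOCS3, SOCS2, CISH (56.1 ± 6.20), SOCS1 (28.7 ± 6.53), JAK2 (21.3 ± 3.66) and LIFR (20.1 ± 2.52). Library ranges overlapped between STAT3 and OSMR, between SOCS3 and SOCS2, between SOCS1 and JAK2 and between JAK2 and LIFR, so those neighbours did not differ beyond their spread. IL6ST lay higher than 88.7% of the 13372 tested genes with a known length, and LIFR higher than 17.9%. With erlotinib STAT3 came first (1206 ± 36.1), ahead of IL6ST (953 ± 23.6) and OSMR (660.3 ± 26.5), and SOCS3 stood above IL6R (492 ± 11.5). The ratio of STAT3 to IL6ST was 0.743 to 0.920 in the DMSO libraries and 1.23 to 1.32 in the erlotinib libraries, so the order of these genes turned over. IL6ST exceeded LIFR 44.4-fold in DMSO and 37.1-fold with erlotinib, and IL6R 2.08-fold and 1.93-fold. The aligner used, Bowtie2, has no spliced mode, and the longest transcripts have from 1 exon in SOCS1 to 25 in JAK2. The part of this, and of the choice of the longest transcript, in the order between genes was not tested.

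The other JAK and STAT genes listed were all higher, beside 35.3% of all tested genes. JAK1 (log2 fold change 0.44), TYK2 (0.40) and the weakly expressed JAK3 (1.62), the kinases other than JAK2, were all higher, 3 of 3. JAK1, a main kinase of gp130, exceeded JAK2 on signal per kb by 34.2-fold in DMSO and 45.5-fold with erlotinib. Of the other STAT genes listed 5 of 5 were higher, and their median log2 fold change was 1.61, beside 0.02 over all tested genes. STAT2 (1.85), which carries interferon signals, STAT6 (1.05), which carries IL-4 signals, and STAT5A (1.61) and STAT5B (0.36), which serve growth hormone and prolactin, were among them, with STAT4 (2.00). The adjusted p-values of these JAK and STAT genes, JAK2 apart, were at most 3.0e-04 (limma). The log2 fold change of STAT3, 0.68, lay between those of STAT5B and STAT6.

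**Figure D3:**
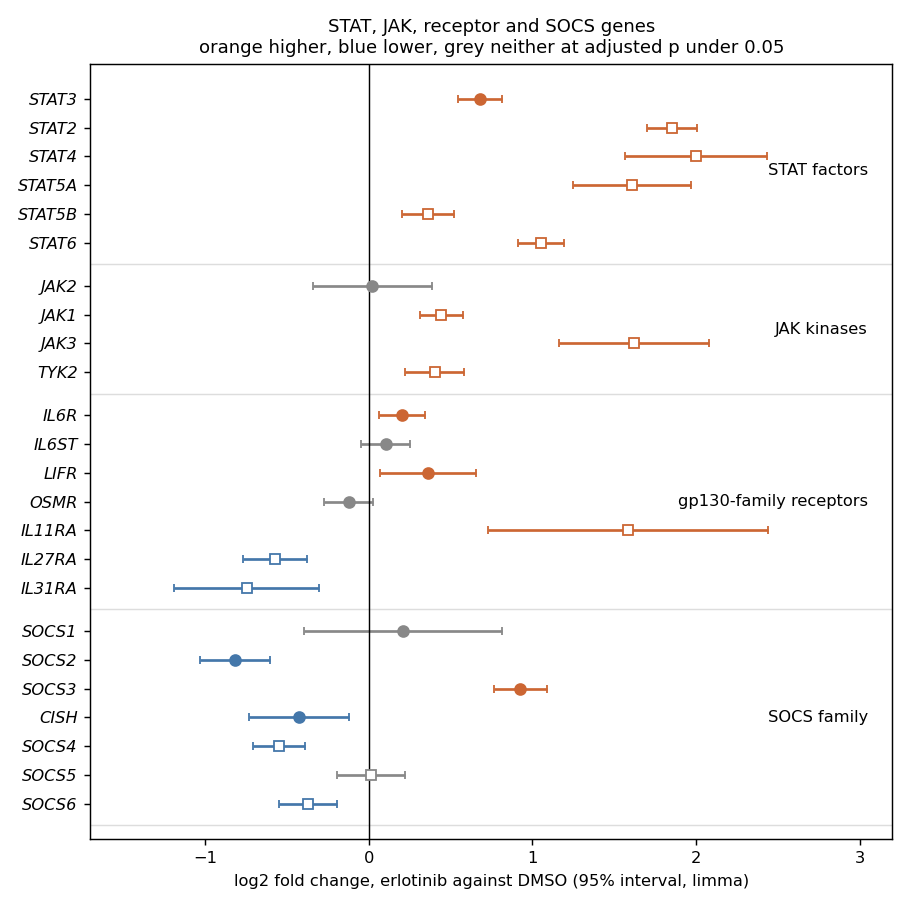
Log2 fold change of erlotinib against DMSO with its 95% interval (limma, horizontal axis) for STAT, JAK, receptor and SOCS family genes. Filled circles are the 10 genes described here and open squares related genes. The 6 STAT genes shown all lie to the right of 0, JAK2, IL6ST, OSMR, SOCS1 and SOCS5 have intervals that include 0, and the SOCS family lies on both sides.

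Among the gp130 receptors outside the 10 genes, IL11RA, the IL-11 receptor, rose by 1.58 on the log2 scale from a mean signal of only 18.2. IL27RA (-0.57) and IL31RA (-0.74) fell, and CNTFR had at most 3 reads in any library. Of 9 ligands and ligand subunits, 5 had enough signal to test, and 2 were lower and 2 higher, a share near the 70.7% called in either direction over all tested genes. IL11 fell from a mean signal of 238 ± 19.1 to 56.5 ± 6.31 (SD, n = 3 each), with a log2 fold change of -2.06 (adjusted p = 3.6e-09, limma). IL6 rose from 129 ± 7.60 to 205 ± 26.3 (0.66, adjusted p = 0.0012, limma), and CLCF1 fell by 0.34 on the log2 scale (adjusted p = 4.4e-04, limma). Only 1 ligand gene was lower when libraries were scaled to total counts. LIF, with a mean signal of 2219 in DMSO and 2049 with erlotinib, passed in neither direction (adjusted p = 0.162, limma). EBI3, a subunit of IL-27, was the second ligand gene past the threshold upwards (1.48), with groups that overlapped and 2 reads in DMSO library 1. It passed in only 6 of 15 alternatives, and without DMSO library 1 its log2 fold change was 0.52 (adjusted p = 0.250, limma). IL6 passed in all 15. OSM, the ligand of OSMR, and CNTF were at 0 reads in every DMSO library.

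Of 12 other inhibitors of JAK-STAT signalling, 10 were tested, of which 6 were lower and 2 higher. The background was 35.4% lower and 35.3% higher, and the share of inhibitors called in either direction, 8 of 10, was near the 70.7% of all tested genes. The median log2 fold change of these inhibitors was -0.38. SH2B3, an adaptor that restrains JAK2, fell by 1.23 and PIAS2, which modifies STATs, fell by 1.07 on the log2 scale. The phosphatase PTPN11, which binds gp130 and also transmits EGFR signals, fell by 0.63, and PTPN6, a related phosphatase, rose by 0.81. The adjusted p-values of SH2B3, PIAS2, PTPN11 and PTPN6 were at most 2.4e-06 (limma).

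Genes described as STAT3 targets did not move in 1 direction. Of 18 tested, 8 were higher and 8 lower, beside a background of 35.3% higher and 35.4% lower, and their median of 0.02 on the log2 scale stood beside 0.02 over all tested genes. BCL6, a transcriptional repressor, rose from a mean signal of 126 ± 28.6 to 1140.2 ± 47.7 (SD, n = 3 each), with a log2 fold change of 3.19, and ZFP36 (1.79), CEBPD (1.78) and BCL3 (1.31) rose too. CCND1 (-3.23), a cyclin of the G1 phase, and BIRC5 (-2.63), which acts in mitosis, fell most. FOS (-1.23), VEGFA (-1.15) and HIF1A (-1.05) fell too. The part of STAT3 in the changes of these genes, up or down, was not tested. The adjusted p-values of BCL6, ZFP36, CEBPD, BCL3, CCND1 and BIRC5 were at most 2.8e-11 (limma).

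Acute-phase proteins are secreted in inflammation, and several of their genes are classic targets of IL-6 and STAT3 in liver. Of 16 such genes, 11 were tested and 10 were higher, beside 35.3% of all tested genes. In 5 of those 10 the DMSO mean was under 10, so they were tested only because of their erlotinib signal and had to differ. Of the 6 with a mean of at least 10 in both groups, 5 were higher, beside 33.8% of the 13422 such genes in all. SERPINA3 (alpha-1-antichymotrypsin) rose from 21.4 ± 1.87 to 318.5 ± 45.4 (SD, n = 3 each), with a log2 fold change of 3.83, FGB, a fibrinogen chain, from 173 ± 37.0 to 1107 ± 50.9 (2.69), and LCN2 from 990.3 ± 110 to 3343 ± 216 (1.76). SAA1 (1.58) and SAA2 (3.38) rose as well, but they are near-identical copies. Only unique alignments were counted, so reads that match both may be missing. The fibrinogen chains FGA (mean signal 3.51 and 85.5, log2 fold change 4.67) and FGG (7.54 and 74.1, log2 fold change 3.26) were among the genes with little DMSO signal. SERPINA1 (0.73) passed in neither direction (adjusted p = 0.216, limma), and CRP, HP, LBP, ORM1 and A2M had at most 4 reads in any library. The adjusted p-values of SERPINA3, FGB, LCN2, SAA1 and SAA2 were at most 1.2e-08 (limma).

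**Figure D4:**
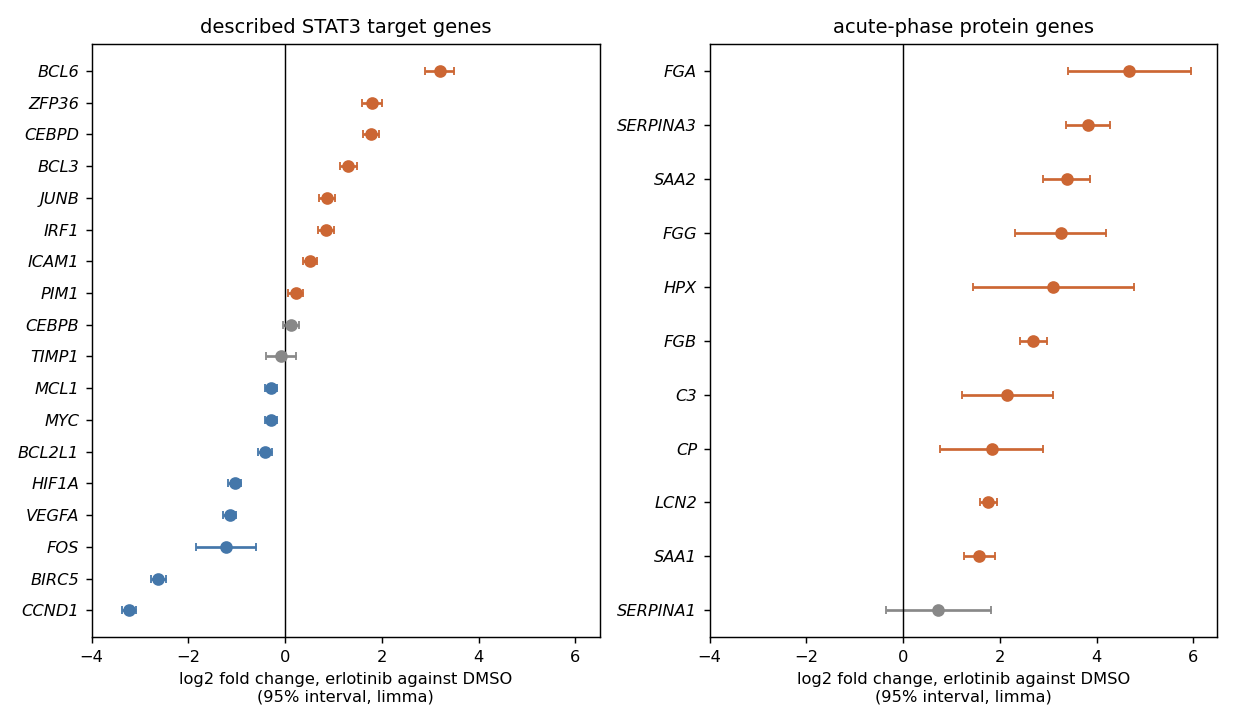
Log2 fold change of erlotinib against DMSO with its 95% interval (limma, horizontal axes) for 18 genes described as STAT3 targets (left) and the 11 tested acute-phase protein genes (right), in order of fold change. Orange is higher, blue lower and grey neither at the 0.05 threshold. The targets spread from -3.23 to 3.19, and the acute-phase genes all lie to the right of 0, with the interval of SERPINA1 including it.

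The genes whose pattern over the 6 libraries was most like that of STAT3, by Pearson's r of log2(signal + 1), were PVRIG (0.9994), TESK2 (0.9991) and SLC4A3 (0.9988). Their mean signals in DMSO and with erlotinib were 145 and 718 for PVRIG, 96.1 and 286 for TESK2, and 62.2 and 248 for SLC4A3. Such likeness is common in these data, since 2438 tested genes had an r of at least 0.95 with STAT3 over libraries that share the split between DMSO and erlotinib.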

How the data were processed

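RNA-seq of 6 HCC827 libraries was analysed, 3 treated with DMSO and 3 with 1 μM erlotinib for 24 h. The authors aligned read pairs with Bowtie2 2.3.4 to GRCh38 and assigned unique alignments to genes with featureCounts 1.6.3; the strand counted is not given in the sources used here. The deposited signal values are described as raw counts, but they are reads divided by 1 size factor per library (0.882 to 1.08): 100% of values were whole multiples of their library's step within 0.01 read, which gave the reads back for all 6 libraries. The 3 erlotinib columns (4 to 6) carry other numbers than the labels, so they were assigned to the group only, and 0 columns were left out.
Signal was tested with limma 3.58.1 (R 4.3.3) on log2(signal + 1), two-sided and with the eBayes trend option, over the 14215 genes that averaged 10 or more, Benjamini-Hochberg adjusted over all of them, at a threshold of 0.05. All 10 genes are named. Of longer lists the 4 tested genes with the largest change past the threshold are named. Further list members were named after their values were seen. 2 genes of these lists are not reported here and are in no list count. The overlapping genes were named after their values were seen. The genes and lists were chosen with earlier results of these data known. Alternatives were edgeR 4.0.16, DESeq2 1.42.0 and limma-voom on recovered reads, scaling to the total count, other filters, pseudocounts and thresholds, and leaving out each library. Tested on simulated data for this comparison with 14202 genes, limma recovered 90 of 97 genes changed 2-fold and 99 of 99 changed 4-fold. Of its 197 calls there, 8 were false. The simulation gave every gene the same noise beyond sampling and changed only a small share of genes, evenly up and down. It also scaled libraries by the size factors used to draw them. In the real data 70.7% of the tested genes were called, so these rates may not hold there. Libraries of a group differed by more than sampling noise, with a chi-square of 4.05 to 22.9 per degree of freedom. Lengths came from GENCODE release 44, known for 94.1% of tested genes, and positions and promoter windows from RefSeq (GRCh38.p14). The transcripts of 0 of the 10 genes aligned to any of 261 alternate contigs (minimap2 2.31-r1302), where a copy would cost uniquely mapped reads.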

Additional observations from a re-analysis of the deposited data

How the results depend on the processing

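STAT3, SOCS3 and SOCS2 kept their direction and their call under all alternatives run. With libraries scaled to their total counts, the median over all tested genes moved from 0.02 to 0.20. CISH was then -0.25 (adjusted p = 0.132, limma), IL6ST 0.28 (adjusted p = 0.0015, limma) and OSMR 0.058 (adjusted p = 0.488, limma), or -0.44, 0.09 and -0.14 relative to that median. IL6R was 0.38 (adjusted p = 6.4e-05, limma), LIFR 0.54, SOCS1 0.39 and JAK2 0.20, or 0.19, 0.34, 0.19 and 0.0031 relative to it, and 1 of the 10 genes and 1 ligand gene were lower. At a threshold of 0.01, 1 of the 10 genes was lower and 2 were higher, since CISH (-0.43), IL6R (0.20) and LIFR (0.36) no longer passed, and 1 ligand gene and 1 inhibitor were higher. With at least 10 reads in every library, 5 acute-phase genes, 1 ligand gene and 0 of the other gp130 receptors were higher, since fewer genes could be tested. Without a filter, with edgeR and with DESeq2, 1 ligand gene was higher; the call lost was EBI3, and the cause was not tested.
With each library left out in turn, 1 to 2 of the 10 genes were lower and 2 to 5 higher, 1 to 2 ligand genes were higher, and 1 to 2 inhibitors were higher (PIAS3 was lost in 3 of the 6 fits). The log2 fold change was -0.51 to -0.32 for CISH, 0.18 to 0.22 for IL6R, 0.042 to 0.18 for IL6ST, 0.30 to 0.46 for LIFR, -0.16 to -0.05 for OSMR, -0.12 to 0.13 for JAK2 and -0.033 to 0.38 for SOCS1. The sign of JAK2 turned without DMSO library 3 (-0.12) or erlotinib library 4 (-0.02), and that of SOCS1 without erlotinib library 5 (-0.033). Over all alternatives 3952 to 5096 genes were lower and 4323 to 6182 higher. No paired analysis was possible because the erlotinib columns do not carry the replicate numbers of the labels. The few reads of SOCS1 and JAK2 limit what can be detected for them.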

Other observations

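Of 17 receptor genes of other cytokines that use JAK kinases, 14 were tested, of which 10 were higher and 2 lower with erlotinib, beside 35.3% higher and 35.4% lower over all tested genes. Of the 13 that averaged 10 or more in both groups, 9 were higher and 2 lower, beside 33.8% and 36.7% of the 13422 such genes in all. The median of these 13 was 0.48 on the log2 scale. The mean signal of LEPR, the leptin receptor, rose by 2.12 on the log2 scale, from 133 ± 16.0 to 579 ± 19.0 (SD, n = 3 each). That of EPOR, the erythropoietin receptor, rose by 2.03, from 140.1 ± 31.6 to 568 ± 21.6 (SD, n = 3 each). IL20RB rose by 1.21 on the log2 scale, and its adjusted p-value and those of LEPR and EPOR were at most 1.1e-10 (limma). PRLR, the prolactin receptor, averaged 2.18 in DMSO and 39.1 with erlotinib (log2 fold change 3.95), so it was tested only because of its erlotinib signal. The interferon receptor chains IFNAR1 (0.20), IFNAR2 (0.69), IFNGR1 (0.48) and IFNGR2 (0.87) were all higher, while IFNLR1 (-0.46) and IL7R (-1.02) were lower. The highest adjusted p of these 6 was 0.0127 (limma).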
